A study of Mus with 4 samples.

Results

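The transcripts described here are 39 genes of the lysosome and of autophagy, measured in murine podocyte cells infected with a lentivirus that encodes either active OASIS or Venus. The genes were chosen by symbol: every probe of the deposited array table whose gene symbol is one of the 39 was taken, which gave 81 probes. Of these genes, 38 could be tested, among 16313 genes tested on the array. They cover 24 lysosomal genes (6 of the lysosomal membrane, 10 proteases and 8 glycosidases or lipid handling proteins), 2 transcription factors of lysosomal genes, and 13 genes of autophagy (3 of initiation, 4 of the conjugation machinery, 5 of the LC3 and GABARAP family and 1 receptor).

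OASIS, encoded by Creb3l1, is a transcription factor that is anchored in the membrane of the endoplasmic reticulum and is cut under stress, which frees its N-terminal part to enter the nucleus. The study asked what this active N-terminal form does to gene expression in podocytes, the cells that wrap the capillaries of the glomerulus. RNA came from 2 samples with the Venus lentivirus, a fluorescent protein that served as control, and 2 samples with the OASIS lentivirus. All 4 samples were cells of one immortalised line that had been differentiated for 10 to 14 days at 37 °C without interferon-γ, were kept with the virus and polybrene for 24 h at a multiplicity of infection of 200 to 500, and were lysed 48 h after the virus was added. Nothing in the labels says that the samples of a group were separate cultures, so that the p-values measure the spread between these samples, which may be technical.

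Lysosomes are acidic compartments in which proteases, glycosidases and lipases break down material from endocytosis and from autophagy. In autophagy a membrane, the phagophore, grows around cytoplasm or organelles: the Ulk1 kinase and a Becn1-containing lipid kinase complex start it, WIPI proteins read the lipid signal, and a conjugation system with Atg3, Atg5, Atg7 and Atg12 attaches proteins of the LC3 and GABARAP family to the membrane. Receptors such as Sqstm1 then bring in cargo, and the closed autophagosome fuses with the lysosome. Tfeb and Tfe3 switch on many lysosomal and autophagy genes together. Podocytes are long-lived cells that divide little and are known for a high basal level of autophagy.

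Each array held 59305 spots for transcripts, of which 33938 to 34418 were well above background, and none was saturated. The arrays of a group correlated at 0.997 (Venus) and 0.995 (OASIS) over the tested probes, against 0.973 to 0.978 between groups, and all arrays lay on 1 slide and came from 1 scan. The arrays' small number limits the precision of every value. The probe of Creb3l1 read 0.71 and 0.72 in Venus and 0.61 and 0.49 in OASIS (log2 scale, explained in the next paragraph, limma adjusted p = 0.298), so that this probe does not show the introduced OASIS. Which part of the transcript it reads was not examined. The paper calls these cells OASIS-overexpressing and shows an immunoblot for OASIS made 48 h after transfection. Of 12 podocyte markers 8 were tested, whereas the probes of Nphs1 (nephrin) did not pass the filter.

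Values below are log2 intensities relative to the 75th percentile of the array (0 is that percentile), given first for the 2 Venus and then for the 2 OASIS arrays, and a fold change is OASIS over Venus. A probe's brightness also depends on its sequence, so levels of different probes are not compared. A gene is represented by its brightest probe over the 4 arrays. The threshold of the study's methods, a fold over 2 or under 0.5 with an adjusted p under 0.1, is called both limits here, and "rose" or "fell" is used for an adjusted p under 0.1 (limma, Benjamini-Hochberg over all tested probes).

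Wipi1 and Atg5 rose past both limits, and no member fell past both limits. That is 2 of 38 members (5.26%) in a comparison in which 6.22% of all genes rose and 1.85% fell past both limits, so that the share of members is near the background in both directions. By adjusted p alone 6 members (15.8%) rose and 8 (21.1%) fell, against 18.7% and 18.2% of all genes, which is again near the background. The members that rose were Wipi1, Atg5, Ctsh, Gabarap, Atg12 and Gabarapl2, and those that fell were Scarb2, Mcoln1, Ctsf, Ctsk, Ctsz, Neu1, Tpp1 and Sqstm1. The other 24 passed in neither direction. Both OASIS arrays lay above both Venus arrays for 12 members (31.6%, 31.5% of all genes) and below both for 19 (50%, 39.4% of all genes), while 7 overlapped. The counts by adjusted p were lower with 1 array left out, and so were the shares over all genes. Without Venus replicate 1, 2 members were higher and 1 lower (8.00% and 2.89% of all genes), and without Venus replicate 2 also 2 and 1 (8.37% and 4.01%). Without OASIS replicate 1 they were 5 and 2 (15.5% and 12.6%), and without OASIS replicate 2 they were 4 and 6 (17.9% and 16.9%). In each of these fits the lone array is assumed to vary like those of the other group. Of the 14 members that rose or fell, Wipi1, Atg5 and Scarb2 passed with either Venus array left out, and the other 11 did not.

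**Figure D1:**
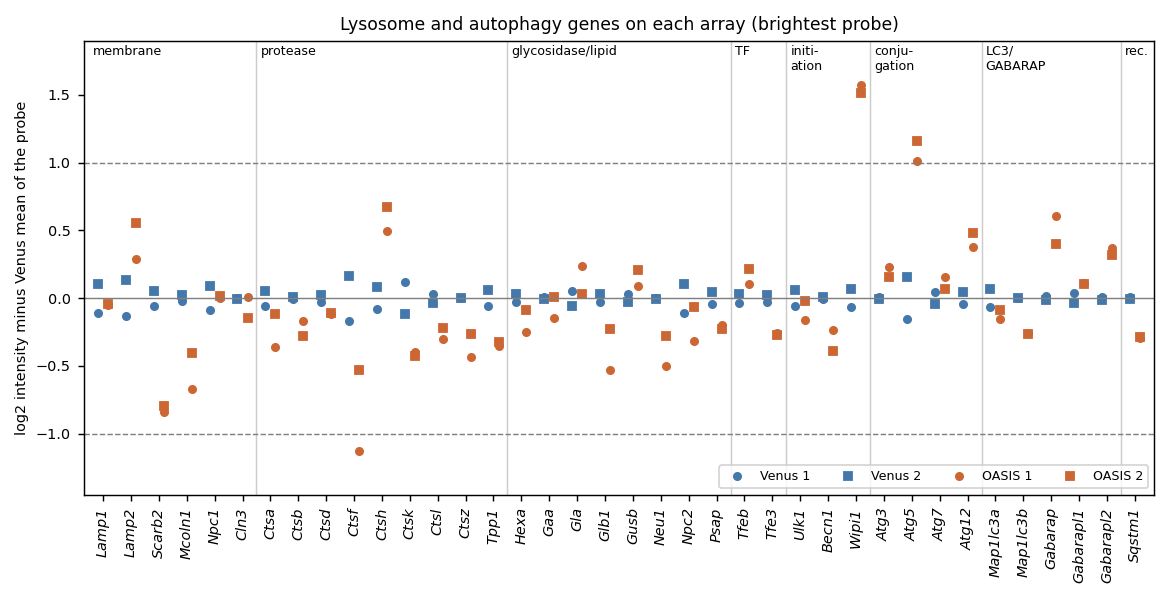
Log2 intensity of the brightest probe of each of the 38 tested members on each of the 4 arrays, minus the mean of the 2 Venus arrays for the same probe. Points are single arrays, blue for Venus and orange for OASIS, grouped by role (TF, transcription factor, rec., receptor), and dashed lines mark a 2-fold difference. The OASIS arrays of Wipi1 and Atg5 lie above the upper dashed line and 1 OASIS array of Ctsf lies below the lower one, while all other points lie between the lines.

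Most differences were small. The 95% interval of the fold change lay within 2-fold in either direction for 34 of the 38 members (89.5%, 77.4% of all genes), and the exceptions were Wipi1, Atg5, Scarb2 and Ctsf. The median log2 fold change was -0.12 over the members and -0.056 over all genes. It was -0.21 over the 23 tested lysosomal members, of which 1 rose (4.35%, against 18.7% of all genes), 7 fell (30.4%, against 18.2%) and 14 lay apart with OASIS lower (60.9%, against 39.4%). It was 0.11 over the 13 autophagy members, of which 5 rose (38.5%, against 18.7% of all genes), 1 fell (7.69%, against 18.2%) and 8 lay apart with OASIS higher (61.5%, against 31.5%). Neither these shares nor the difference between the 2 groups of members was tested.

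**Figure D2:**
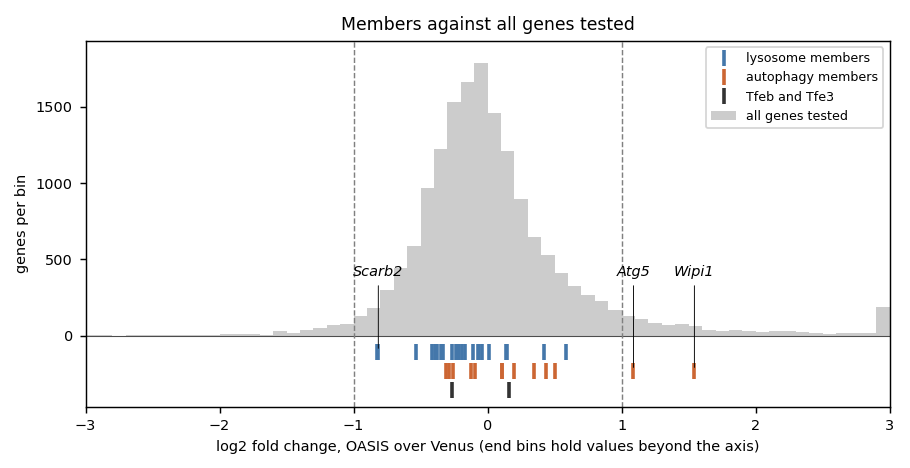
Histogram of the log2 fold change (OASIS over Venus) of all 16313 genes tested, with the number of genes per bin on the vertical axis. Ticks under the axis mark the lysosomal members (blue), the autophagy members (orange) and Tfeb and Tfe3 (black), and dashed lines mark a 2-fold difference. All members but Wipi1 (1.54) and Atg5 (1.09) lie between the dashed lines.

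Among the genes that start autophagy, Wipi1 was the member with the largest change. Its protein binds phosphatidylinositol 3-phosphate on the phagophore. The brightest probe, at chromosome 11 band qE1, read 2.22 and 2.35 in Venus and 3.86 and 3.80 in OASIS. Both OASIS arrays lay far above both Venus arrays, with the nearest arrays of the 2 groups 1.45 apart. The group means differed by 1.54 on the log2 scale (SE 0.11, 2.91-fold, limma adjusted p = 0.00462). The other 2 probes of Wipi1 rose as well, by 1.59 (SE 0.13, limma adjusted p = 0.00604) and 1.11 (SE 0.15, limma adjusted p = 0.0127). Wipi1 was the only member that passed the adjusted p in every alternative run, with log2 fold changes between 1.41 and 1.61.

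The other initiation genes did not rise. Ulk1, the kinase that receives nutrient signals, read 4.14 and 4.26 in Venus and 4.03 and 4.18 in OASIS with its brightest probe, so that the groups overlapped (log2 fold change -0.09, SE 0.11, limma adjusted p = 0.597). A dimmer Ulk1 probe read -1.55 and -1.50 against -2.26 and -2.29 and fell by 0.75 (SE 0.10, limma adjusted p = 0.013). Becn1, a subunit of the lipid kinase complex, read 0.90 and 0.92 in Venus and 0.67 and 0.52 in OASIS. These groups did not overlap, but the difference of -0.31 (SE 0.11) did not pass the test (limma adjusted p = 0.104).

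In the conjugation machinery, the groups lay apart with OASIS higher for all 4 members (31.5% of all genes), and 2 of them rose (18.7% of all genes). Atg5, which joins with Atg12 into the complex that directs LC3 to the membrane, is measured by a single probe at chromosome 10 band qB2. It read 0.15 and 0.46 in Venus and 1.32 and 1.47 in OASIS, a rise of 1.09 (SE 0.15, 2.13-fold, limma adjusted p = 0.0141). The Venus arrays lay 0.31 apart and the nearest arrays of the 2 groups 0.86 apart. Without Venus replicate 1 the rise was 0.93 and no longer reached 2-fold, and under the methods' t-test its adjusted p was 0.129. Atg12, the partner of Atg5, read 3.87 and 3.96 against 4.29 and 4.40 and rose by 0.43 (SE 0.11, limma adjusted p = 0.0489). The activating enzyme Atg7 (0.11, limma adjusted p = 0.487) and the transfer enzyme Atg3 (0.20, limma adjusted p = 0.217) did not pass. A second probe of Atg7 read 0.68 and 0.58 against 0.34 and 0.28 and fell by 0.32 (limma adjusted p = 0.0903), the other way from the first.

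The LC3 and GABARAP family split by subfamily in sign. Gabarap, a small ubiquitin-like protein of the autophagosome membrane, read 5.53 and 5.50 in Venus and 6.12 and 5.91 in OASIS and rose by 0.50 (SE 0.12, 1.42-fold, limma adjusted p = 0.0451), and its other 2 probes both rose by 0.72 (limma adjusted p = 0.0141 and 0.0143). Gabarapl2 read 5.16 and 5.14 against 5.53 and 5.47 and rose by 0.34 (SE 0.099, limma adjusted p = 0.0685), with the same size on its second probe. Another, much dimmer probe of Gabarapl2 rose by 1.15 (SE 0.099, limma adjusted p = 0.0065), from -4.30 and -4.36 to -3.18 and -3.18, and is annotated to another transcript record than the brighter 2. Gabarapl1 was 0.11 higher (limma adjusted p = 0.478) without passing.

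Neither gene of the LC3 subfamily rose. Map1lc3b, the gene of the commonly used autophagosome marker LC3B, read 6.04 and 6.04 in Venus and 5.79 and 5.78 in OASIS (log2 fold change -0.26, SE 0.097, limma adjusted p = 0.12). Its second probe fell by 0.38 (SE 0.097), from 4.44 and 4.44 to 4.05 and 4.08 (limma adjusted p = 0.055). Map1lc3a was at -0.12 (limma adjusted p = 0.457). The difference between the subfamilies was not tested.

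Sqstm1 encodes p62, the receptor that binds ubiquitin-tagged cargo and LC3 and is itself degraded by autophagy. It read 7.24 and 7.22 in Venus and 6.94 and 6.94 in OASIS and fell by 0.29 (SE 0.097, limma adjusted p = 0.0949). The arrays of each group lay very close together, and the other 2 probes fell by 0.46 and 0.37 (limma adjusted p = 0.0411 and 0.0707). The call on the brightest probe ended under quantile normalization and whenever an array was left out. It also ended without a filter on dim probes and at an adjusted p under 0.05.

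Neither Tfeb nor Tfe3 rose. The brightest Tfeb probe, at chromosome 17 band qC, read -1.37 and -1.30 in Venus and -1.23 and -1.12 in OASIS (log2 fold change 0.16, SE 0.11, limma adjusted p = 0.326). The other 3 Tfeb probes all fell, by 0.36, 0.55 and 0.66 (limma adjusted p = 0.0816, 0.0755 and 0.0188), so that the sign of the gene depended on the probe. These 3 are annotated to RefSeq transcripts and the brightest to an Ensembl transcript. The mean of the probes gave -0.35 and passed as a fall (limma adjusted p = 0.0692). Tfe3 read 3.86 and 3.92 against 3.63 and 3.62, at -0.27 (SE 0.099, limma adjusted p = 0.118).

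Of the 6 members of the lysosomal membrane 2 fell (33.3%, against 18.2% of all genes), a share that rests on few genes. Scarb2, the receptor that carries glucocerebrosidase to the lysosome, read 2.36 and 2.47 in Venus and 1.58 and 1.62 in OASIS with its brightest probe, at chromosome 5 band qE2, and fell by 0.82 (SE 0.10, limma adjusted p = 0.0122). A second Scarb2 probe, annotated to the same transcript, read -0.09 and 0.14 against 0.69 and 1.20 and rose by 0.92 (SE 0.21, limma adjusted p = 0.0412). On both probes the groups lay apart, in opposite directions, and the mean of the probes was 0.051. Scarb2 was the only 1 of 21 members with 2 or more tested probes whose probes passed in opposite directions (6.55% of all such genes). The rise on the second probe was lost without either Venus array (limma adjusted p = 0.171 and 0.109).

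Mcoln1, the gene of the lysosomal calcium channel mucolipin, fell by 0.54 (SE 0.13, limma adjusted p = 0.048), from 3.32 and 3.37 to 2.68 and 2.94, and its dimmer probe fell by 1.02 (SE 0.17, limma adjusted p = 0.0205). Lamp2, a heavily glycosylated membrane protein that is spliced into several forms, differed by probe. The probe annotated to one Lamp2 RefSeq transcript, the brightest, read 2.92 and 3.19 in Venus and 3.34 and 3.61 in OASIS (log2 fold change 0.42, SE 0.16, limma adjusted p = 0.12). The probe annotated to another RefSeq transcript read 2.97 and 3.03 against 2.23 and 2.28 and fell by 0.74 (SE 0.10, limma adjusted p = 0.0135). The second probe had groups well apart in the opposite direction from the first, and only its fall passed the test. Lamp1 (-0.04), the cholesterol transporter Npc1 (0.0091) and the membrane protein Cln3 (-0.07) were near 0, with limma adjusted p from 0.672 to 0.961, and their signs changed between settings.

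**Figure D3:**
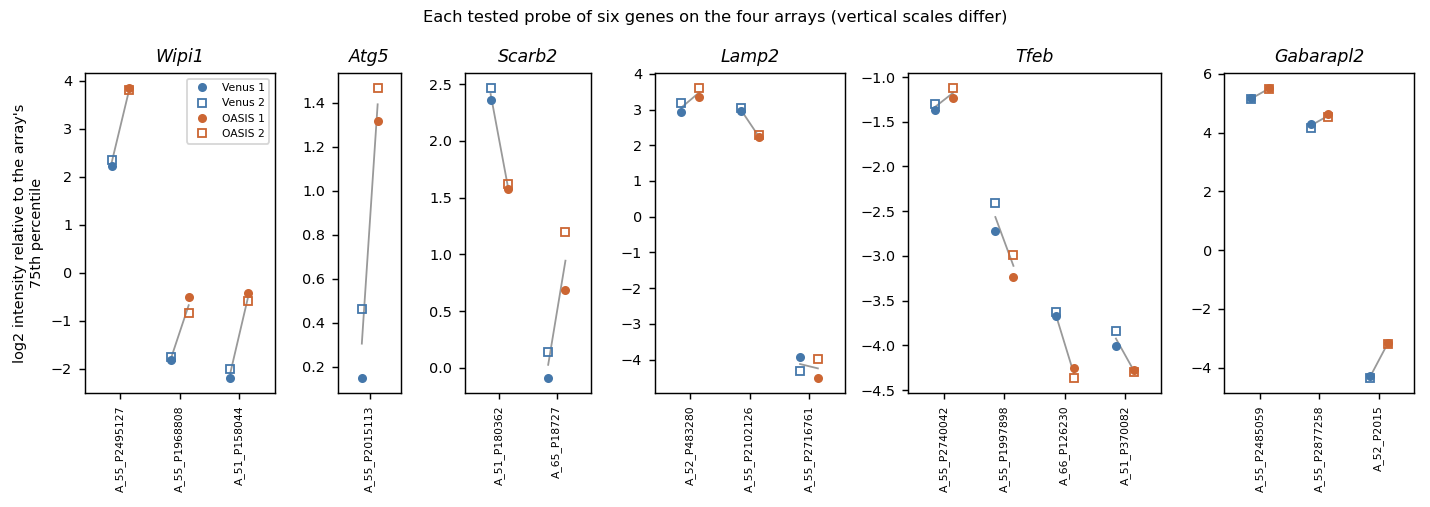
Log2 intensity relative to the 75th percentile of the array for every tested probe of Wipi1, Atg5, Scarb2, Lamp2, Tfeb and Gabarapl2. Points are single arrays (filled circles replicate 1, open squares replicate 2, blue Venus, orange OASIS), lines join the group means, and the vertical scale differs by gene. All 3 Wipi1 probes go up, the 2 Scarb2 probes cross in direction (-0.82 and 0.92), and of the 4 Tfeb probes the brightest goes up and the other 3 go down.

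Across all probes of the members, 70 of 81 were tested. Past both limits 5 were higher, the 3 of Wipi1, that of Atg5 and the dim probe of Gabarapl2, and 1 was lower, the dim probe of Mcoln1, where 5.89% of all probes were higher and 2.47% lower.

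Among the proteases 8 of 9 tested genes had both OASIS arrays below both Venus arrays (39.4% of all genes). Of these, 4 fell (18.2% of all genes). Ctsf, a papain-like cysteine protease, fell by 0.83 (SE 0.25, limma adjusted p = 0.0737), from -3.28 and -2.95 to -4.24 and -3.64. It was dim and its OASIS arrays lay 0.60 apart, and without OASIS replicate 2 it passed both limits, while without any other array the call was lost. Ctsk, a collagen-degrading protease known from osteoclasts, read -2.33 and -2.57 in Venus and -2.85 and -2.87 in OASIS and fell by 0.41 (limma adjusted p = 0.0768). The carboxypeptidase Ctsz fell by 0.35, from 4.12 and 4.11 to 3.68 and 3.86 (limma adjusted p = 0.0884), and the tripeptidyl peptidase Tpp1 by 0.34, from 4.81 and 4.93 to 4.52 and 4.54 (limma adjusted p = 0.0822).

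Ctsh, an aminopeptidase, was the only lysosomal member that rose. It read -0.46 and -0.29 in Venus and 0.12 and 0.30 in OASIS, a rise of 0.59 (SE 0.13, limma adjusted p = 0.0359), and its other 2 tested probes rose by 0.62 and 0.93 (limma adjusted p = 0.0256 and 0.0653). The call was lost without either Venus array (limma adjusted p = 0.21 and 0.129). The main digestive cathepsins did not pass. The aspartic protease Ctsd read 6.49 and 6.54 against 6.40 and 6.41, at -0.11 (limma adjusted p = 0.446), Ctsb was at -0.22 (limma adjusted p = 0.184) and Ctsl at -0.26 (limma adjusted p = 0.131). Ctss, a cathepsin of antigen-presenting cells, was not well above background on any array.

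The glycosidases and lipid handling proteins had a median of -0.18, with 1 of 8 lower by adjusted p (12.5%, against 18.2% of all genes). Neu1, the lysosomal sialidase, read 2.86 and 2.85 in Venus and 2.35 and 2.58 in OASIS and fell by 0.39 (SE 0.12, limma adjusted p = 0.0822). Neu1 works in a complex with the galactosidase Glb1 and the protective protein Ctsa. Glb1 read 2.06 and 2.11 against 1.55 and 1.86, at -0.38 (SE 0.14, limma adjusted p = 0.116). All 4 tested Glb1 probes had negative fold changes, between -0.50 and -0.30, and 2 of them fell (limma adjusted p = 0.036 and 0.0668). Ctsa was at -0.24 (limma adjusted p = 0.245), and a dim second probe fell by 0.54 (limma adjusted p = 0.0321). Hexa (-0.17), which acts on gangliosides, the glycogen-degrading Gaa (-0.07), the galactosidase Gla (0.14), the glucuronidase Gusb (0.15), the cholesterol carrier Npc2 (-0.19) and Psap (-0.21), the precursor of the saposins, did not pass, with limma adjusted p from 0.193 to 0.685.

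As further context, 146 other genes of the same pathways were counted by 7 lists, and 144 could be tested (Ctso and Tfec could not). Past both limits 5 rose (3.47%, against 6.22% of all genes) and 1 fell (0.694%, against 1.85%). By adjusted p alone 25 rose (17.4%, against 18.7%) and 23 fell (16.0%, against 18.2%), so that these shares are near or under the background. Their median was -0.085. The following counts by list rest on few genes each and were not tested against these shares. Among other core autophagy genes (29 tested) 6 rose and 3 fell, among autophagy receptors (15 tested) 4 rose and 4 fell, and among genes that sort hydrolases to the lysosome (17 tested) 4 rose and 0 fell at an adjusted p under 0.1 in limma. The acid pump, a proton-pumping ATPase of 17 tested genes, had 2 higher and 2 lower, other membrane proteins (16 tested) 3 and 6, other hydrolases and activators (31 tested) 4 and 4, and nutrient sensing genes (19 tested) 2 and 4.

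Wipi2, the closest relative of Wipi1, which recruits the Atg12-Atg5 complex, rose past both limits. It read -0.78 and -0.66 in Venus and 0.47 and 0.52 in OASIS, a rise of 1.21 (SE 0.11, limma adjusted p = 0.0065). A second Wipi2 probe rose by 1.19, and the remaining one was 0.47 higher without passing (limma adjusted p = 0.139). Gga2, an adaptor that sorts hydrolases at the Golgi, rose by 1.59 (SE 0.14, limma adjusted p = 0.00674), from 0.66 and 0.89 to 2.48 and 2.26. A second Gga2 probe rose by 1.41, and another was at -0.20 (limma adjusted p = 0.435). Abcb9, a peptide transporter of the lysosomal membrane, rose by 1.40, from 1.17 and 1.20 to 2.79 and 2.37 (limma adjusted p = 0.0109). Ccpg1, a receptor for autophagy of the endoplasmic reticulum, rose by 1.15, from 0.28 and 0.41 to 1.49 and 1.50 (limma adjusted p = 0.00697). Of its other 3 probes, 1 rose by 0.78, and those at 0.56 and -0.02 did not pass (limma adjusted p = 0.135 and 0.95). Atl3, another receptor of this kind, fell by 1.33, from 2.14 and 2.01 to 0.88 and 0.61 (limma adjusted p = 0.00833). A second Atl3 probe was 0.34 higher (limma adjusted p = 0.116), and it became the brightest when either Venus array was left out, which turned the gene's direction. Averaged over their probes, Gga2 (0.93), Wipi2 (0.96), Ccpg1 (0.62) and Atl3 (-0.49) did not reach 2-fold.

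Acp5, tartrate-resistant acid phosphatase, was too dim in Venus to stand well above background (-8.01 and -8.26) and read -0.31 and -1.12 in OASIS, at least 42.5-fold higher. That bound holds for the main processing only. In the alternatives that tested Acp5 its log2 fold change was 3.13 to 7.83. It met the filter through the OASIS arrays alone. When a probe had to be well above background on all 4 arrays, Acp5 was not tested and 4 of the 5 genes were higher. Without a filter on dim probes it still rose.

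Acp5 and Ctsk both mark osteoclasts, in which lysosomal enzymes are abundant, so markers of other cell types are given here. A summed level is linear, in units of the 75th percentile of the array, and is dominated by the brightest probes. Of 9 osteoclast markers 7 were tested, and Calcr and Dcstamp were not well above background on any array. By adjusted p 3 were higher (Acp5, Oscar and Nfatc1) and 1, Ctsk, lower, where 18.7% of all genes were higher and 18.2% lower. Acp5 counts here only because it met the filter through the OASIS arrays. The sum, of which Acp5 is a part, was 1.37 to 1.48 in Venus and 2.32 to 2.92 in OASIS. Of 10 macrophage markers 7 were tested, and Adgre1, Tyrobp and Mrc1 were not well above background on any array. Csf1r was higher and Itgam and Cd14 lower by adjusted p, and the sum was 19.2 to 20.4 in Venus and 15.7 to 15.9 in OASIS, most of it from Itgam. Of 7 tubular markers 4 were tested, with Lrp2 higher and Aqp2 lower, and the sums (21.9 and 29.8 in Venus, 22.4 and 37.9 in OASIS) overlapped. Of 5 mesangial markers 4 were tested, and 1, Gata3, was lower. Their sum, 73.6 to 74.8 in Venus and 60.7 to 62.3 in OASIS, was nearly all Acta2, whose brightest probe did not pass (limma adjusted p = 0.111). A second Acta2 probe fell by 0.32 (limma adjusted p = 0.0867), and another was at 0.05 (limma adjusted p = 0.866). The part of such marker levels in the members' values was not tested. In RNA of whole cultures, fewer cells of a type and less RNA per cell cannot be told apart.

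**Figure D4:**
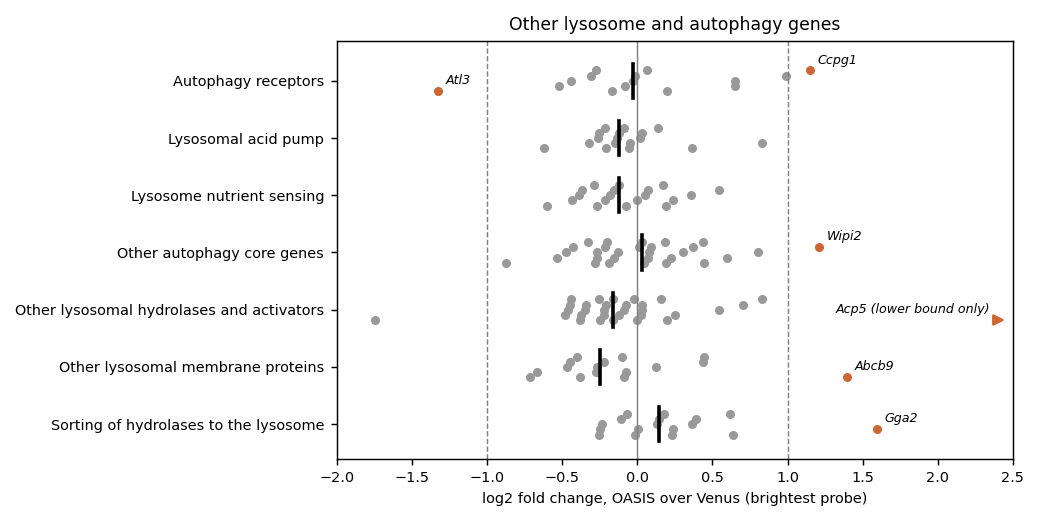
Log2 fold change (OASIS over Venus, brightest probe) of 144 other lysosome and autophagy genes in 7 lists. Each point is a gene (vertical offsets within a list have no meaning), black bars are list medians, orange points passed both limits and dashed lines mark a 2-fold difference. Gga2, Abcb9, Wipi2 and Ccpg1 lie right of the upper line and Atl3 left of the lower one, Acp5 lies beyond the axis (triangle), and Ctsc, at -1.75 and named after its value was seen, did not pass (limma adjusted p = 0.123).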

How the data were processed

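One-colour Agilent arrays of 4 RNA samples were analysed. The authors deposited scanner output of Feature Extraction 12.1.0.3 with background-corrected intensity and marks per spot, and scaled intensity per spot in a shared table, which also gives a deposited detection score, gene symbols and bands. The array was designed on mm9, for which no genome was used here, so coordinates and sequences are not given.

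Control and outlier spots were left out. Corrected intensities were logged (log2), shifted so that the array's 75th percentile was 0, and averaged per probe (a probe with only outlier spots on an array was left out, 8 probes). A probe was tested when at least 0.5 of its spots were well above background on both arrays of a group: 31590 of 56605 probes. limma 3.58.1 (lmFit, eBayes, R 4.3.3) compared the groups. An exact permutation test of 2 against 2 cannot go below p = 0.333 (two-sided) and was not used. The fit was checked on simulated data. A bound sets the bright group's mean against the mean, over the dim group's arrays, of the higher of the lowest signal well above background and the probe's own.

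The members and lists were chosen with earlier results of these data known. All members are named, and of the other lists the genes past both limits. Each tested member is given by its brightest probe. Its other probes are given where their adjusted p was under 0.1, and several that did not pass are left out. Alternatives were other scalings, background correction, filters, probe rules and tests, a replicate block and leaving out each array.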

Additional observations from a re-analysis of the deposited data

How the results depend on the processing

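Among the 14 members that passed the adjusted p, 13 kept their direction under all 17 alternatives, the exception being Scarb2, and Wipi1 alone passed under all 17. Over all members, 646 gene-level comparisons with an alternative gave 12 changes of direction, in 8 genes, 65 lost calls and 30 gained ones. The 22 less bright member probes with an adjusted p under 0.1, which were followed after their values had been seen, kept their direction in all 330 comparisons and lost the call in 80.

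The count of members higher by adjusted p was 6 and fell to 1 under the methods' t-test, where 4.17% of all genes were higher, against 18.7%. The count of members lower was 8, and it was 13 with normexp background correction, 5 with the authors' scaled intensities, 1 without a filter on dim probes, 3 under the methods' t-test, 15 with an intensity trend in eBayes and 2 at an adjusted p under 0.05. In the same order, the shares of all genes that were lower were 21.9%, 17.5%, 6.12%, 2.97%, 23.0% and 9.68%, against 18.2%. Past both limits 2 members were higher, and 1 under the methods' t-test (6.22% and 2.05% of all genes). Of the other genes 5 were higher and 1 lower past both limits (6.22% and 1.85% of all genes). With the mean of a gene's tested probes 3 and 0 of them passed (5.91% and 1.61% of all genes). Under the methods' t-test 3 and 0 passed (2.05% and 0.405%). The count lower was 2 with normexp (0.84%) and 2 with the intensity trend (1.99%). When 1 array was left out, the median log2 fold change of the members lay between -0.17 and -0.079.

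Direction changed for Npc1 with scaling to the median (-0.013), normexp (-0.0019) and the authors' scaled intensities (-0.0048), and for Cln3 with normexp (0.014). With the mean of a gene's tested probes it changed for Atg7 (-0.11), Lamp2 (-0.15), Scarb2 (0.051) and Tfeb (-0.35), since their probes differ in sign. With 1 array left out the log2 fold change was -0.079 to 0.097 for Npc1, -0.15 to 0.0055 for Cln3, -0.15 to 0.062 for Lamp1, -0.15 to 0.011 for Gaa and, as another probe became the brightest, -1.46 to 0.36 for Atl3. Apart from these 4 genes with discordant probes and Atl3, the cause was not tested.

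With the replicate number as a block, 7 members were higher and 10 lower by adjusted p (20.6% and 22.6% of all genes). Past both limits 2 were higher and 0 lower (6.24% and 2% of all genes). The deviations of Venus 1 and OASIS 1 from their group means correlated at 0.259. With only 2 pairs the samples share no more than a number.

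The brightest probe of each of the 38 tested members was well above background on all 4 arrays, so that none met the filter through 1 group alone.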

Other observations

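The deposited table also assigns genes to KEGG pathways, which were counted after the values of the members had been seen. Of its lysosome pathway 88 genes that are no members were tested: 4 rose past both limits (4.55%, against 6.22% of all genes) and 0 fell (1.85% of all genes), and by adjusted p 18 rose (20.5%, against 18.7% of all genes) and 12 fell (13.6%, against 18.2%) in limma. The adaptor subunit Ap3m1, which sorts proteins to lysosomes, rose by 1.11 (SE 0.10, limma adjusted p = 0.00701) and stood beside Acp5, Gga2 and Abcb9. Of its autophagy pathway 115 further genes were tested. Past both limits 5 were higher (4.35%, against 6.22% of all genes) and 1 lower (0.87%, against 1.85%). By adjusted p 24 were higher (20.9%, against 18.7%) and 20 lower (17.4%, against 18.2%) in limma. Higher past both limits were Pik3cd, a lipid kinase subunit (1.72), Rab33b, a GTPase that binds the conjugation complex (1.45), and Wipi2 (1.21). The others were the stress kinase Mapk9 (1.18) and Eif2ak3 (1.18), the PERK kinase of the unfolded protein response. The ubiquitin ligase Traf6 fell by 1.05 (limma adjusted p = 0.00915).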
